A study of Mus musculus with 12 samples.

Results

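The transcripts described are those of MAP kinase feedback inhibitors, a group of 10 mouse genes: the dual-specificity phosphatase genes Dusp1, Dusp4, Dusp5, Dusp6 and Dusp10, the Sprouty genes Spry1, Spry2 and Spry4, and the Sprouty-related genes Spred1 and Spred2. Probes were taken by platform gene symbol, which gave 17 probes for 9 of the 10 genes, among 19057 named genes and 45281 probes of the array. No probe carries the symbol Spry1 here, and that gene is not analysed. The group was chosen by function, with the higher Dusp4 and Dusp5 signals of one line, in the comparison of the lines on these arrays, already known and selected on, so the difference between the lines is given for these genes as a description, without p-values, and only the androgen differences and the dependence of the line difference on androgen are tested for them.

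The RNA came from PKSV-PCT cells, an immortalized line of mouse proximal convoluted tubule cells, in sublines transfected with a CMV-driven construct of human SHBG, the sex hormone-binding globulin that carries androgens in plasma. One line expressed the wild-type protein and the other the S42L mutant, which has no detectable steroid binding, and each was exposed to 100 nM testosterone or to 100 nM 5α-dihydrotestosterone (DHT) for 24 h. The protocol also lists 3 days in steroid-free medium, worded as coming after the hormone, so the order is uncertain. All 4 groups of 3 arrays shared a medium with serum, insulin, triiodothyronine, the glucocorticoid dexamethasone and 10 ng/ml epidermal growth factor (EGF), and there was no group without androgen. Each line came from limiting dilution, chosen for the SHBG it secreted, and no separate clones of a variant are named, so the variant and its clone cannot be told apart. The 6 arrays with DHT were on chip 1 and the 6 with testosterone on chip 2, so androgen and chip cannot be told apart either. On both chips the S42L cells took positions 1 to 3 and the wild-type cells positions 4 to 6, so line and position cannot be told apart. The labels do not state whether replicates came from separate cultures, so p-values cover the spread among these arrays only, and that spread may be technical.

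Per array, 17314 to 19204 of 45281 probes were detected, meaning a detection p under 0.05 against negative control beads. Wild-type testosterone replicates 2 and 3 deviated most from their group means, with a root mean square deviation of 0.229 and 0.263 log2 units against 0.135 to 0.191 on the other 10 arrays. The proximal tubule label was borne out in part. Lrp2, Aqp1, Mme, Hnf4a, Pax8, Cldn2 and Cdh6 were detected on 12 of 12 arrays, whereas Cubn, Slc34a1 and Slc5a1 were detected on none. Of 8 tested proximal tubule markers, 7 were called lower in wild-type cells and 0 higher, at an adjusted p under 0.05 in limma. Of all tested probes, 18.6% were called lower and 19.2% higher by the same rule. The summed normalized signal of the 12 markers on the array was 4885 to 4991 with DHT and 6013 to 6435 with testosterone on the wild-type arrays, and 9407 to 12036 and 14000 to 14848 on the S42L arrays. Of other cell types, the leukocyte genes Ptprc, Itgam and Cd3e and the fibroblast receptors Pdgfra and Pdgfrb were detected on 0 of 12 arrays. Other markers of these types were detected on at least 1 array of a group. Per group these were 1 to 2 of 5 immune and 2 to 5 of 8 fibroblast markers. Of 6 endothelial markers 2 to 5 were detected, and of 8 distal nephron markers 3 to 6. The summed signal of 5 immune markers was 414 to 532 on the wild-type and 742 to 1003 on the S42L arrays, that of 6 endothelial markers 687 to 979 and 1356 to 1654, that of 8 distal nephron markers 1235 to 1529 and 1432 to 1746, and that of 8 fibroblast markers 11607 to 13556 and 12358 to 14512. Of their tested members, 2 of 2 immune, 2 of 5 distal nephron and 1 of 3 fibroblast markers were called lower in wild-type cells and 0 higher. Of 3 endothelial markers 2 were called lower and 1 higher. The part of these marker differences in the results was not tested, and in bulk RNA fewer cells of a type and less RNA per cell cannot be told apart.

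Growth factors such as EGF activate receptor tyrosine kinases, which signal through Ras and the kinases Raf and MEK to the MAP kinase ERK. ERK in turn raises transcription of genes whose products shut the cascade down again. The dual-specificity phosphatases remove phosphate from the tyrosine and threonine that activate a MAP kinase, and the Sprouty and Spred proteins act upstream, between the receptor and Raf. These feedback transcripts are therefore widely used as a readout of pathway activity. DUSP5 and DUSP6 are known to be selective for ERK, DUSP5 in the nucleus and DUSP6 in the cytoplasm. DUSP1 and DUSP4 are nuclear and act on ERK, JNK and p38, and DUSP10 acts mainly on JNK and p38.

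The promoters of 3 members are shown because their transcripts behaved differently: Dusp5 and Dusp10 differed between the lines by over 1 log2 unit, and Dusp1 differed between the androgens. Each window runs from 250 bases before to 50 bases after the annotated start, from RefSeq on GRCm38.p6, written 5′ to 3′ on the strand of the gene. Capitals mark matches, on either strand, to the full CRE TGACGTCA or its core TGACG, the AP-1 site TGANTCA, the ETS site CCGGAA, the E-box CACGTG, the CArG box bound by serum response factor, or the palindromic steroid response element shared by the androgen and glucocorticoid receptors. The core lies within the full CRE, so those matches overlap. The Dusp5 window is chr19:53528895-53529194 on the plus strand, the Dusp10 window chr1:184034131-184034430 on the plus strand and the Dusp1 window chr17:26508423-26508722 on the minus strand.
Dusp5: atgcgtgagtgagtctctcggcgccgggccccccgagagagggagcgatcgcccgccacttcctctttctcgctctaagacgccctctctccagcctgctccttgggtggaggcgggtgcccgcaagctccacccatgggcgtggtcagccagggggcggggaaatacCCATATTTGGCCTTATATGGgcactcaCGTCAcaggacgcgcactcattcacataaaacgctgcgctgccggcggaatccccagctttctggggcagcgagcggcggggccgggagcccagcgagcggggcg
Dusp10: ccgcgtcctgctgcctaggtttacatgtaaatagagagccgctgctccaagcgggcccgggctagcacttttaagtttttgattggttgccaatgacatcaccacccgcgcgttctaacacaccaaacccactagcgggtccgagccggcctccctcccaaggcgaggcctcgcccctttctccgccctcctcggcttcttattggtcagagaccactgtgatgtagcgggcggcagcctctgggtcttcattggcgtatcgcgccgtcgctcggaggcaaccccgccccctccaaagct
Dusp1: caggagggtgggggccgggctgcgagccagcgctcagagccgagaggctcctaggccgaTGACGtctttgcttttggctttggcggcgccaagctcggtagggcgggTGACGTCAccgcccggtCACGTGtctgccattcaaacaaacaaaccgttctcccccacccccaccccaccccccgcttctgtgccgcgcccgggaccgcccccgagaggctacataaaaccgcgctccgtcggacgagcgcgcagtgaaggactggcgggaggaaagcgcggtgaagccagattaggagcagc
The Dusp5 window held 2 CArG boxes, with first bases at positions -82 and -72 from the start, and 1 CRE core at -55. CArG boxes were found in 1.63% of 32851 windows of this length and CRE cores in 20.8%. The Dusp1 window held 1 full CRE, found in 1.79% of all windows, 3 CRE cores including both strands of that CRE, and 1 E-box, found in 7.15%. The Dusp10 window held none of the 7 motifs. ETS sites were in 14.9%, AP-1 sites in 7.81% and the full steroid response element in 0.00913% of all windows, and the Dusp5, Dusp10 and Dusp1 windows held none of these 3. A match is a description of the letters and does not show that a factor binds.

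Dusp5, the nuclear ERK phosphatase, was higher in wild-type than in S42L cells under both androgens. Its normalized log2 signals were 8.90, 8.90 and 9.12 on the wild-type DHT arrays and 8.84, 8.78 and 8.63 on the wild-type testosterone arrays. On the S42L arrays they were 7.71, 7.32 and 7.56 with DHT and 7.79, 7.61 and 7.87 with testosterone. All 6 wild-type arrays lay above all 6 S42L arrays. The difference, wild-type minus S42L, was 1.44 ± 0.13 (SE, 3 against 3 arrays) under DHT and 0.99 ± 0.13 under testosterone, or 1.22 ± 0.09 over both, a 2.33-fold difference. The groups ran from wild-type DHT through wild-type testosterone and S42L testosterone to S42L DHT. The arrays of neighbouring groups were apart except for S42L testosterone and S42L DHT, which overlapped.

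Dusp4, the nuclear phosphatase of ERK and JNK, was measured by 4 probes, and all 4 were higher in wild-type cells. The probe with the highest mean signal read 11.58, 11.55 and 11.67 with DHT and 11.83, 11.96 and 11.45 with testosterone in wild-type cells. In S42L cells it read 10.66, 10.61 and 10.67 with DHT and 10.83, 10.86 and 10.68 with testosterone. The lines did not overlap, and the difference was 0.95 ± 0.13 under DHT and 0.96 ± 0.13 under testosterone. Over both androgens it was 0.96 ± 0.09 for this probe, a 1.94-fold difference, and 0.69 ± 0.08, 0.80 ± 0.12 and 0.58 ± 0.17 for the others. The last of these was detected on 7 of 12 arrays, and only that probe overlapped between the lines. The order of the groups under the 2 androgens was not the same for all probes, and within the wild-type line the androgens overlapped for all 4.

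Dusp10, the phosphatase of JNK and p38, showed the widest span of group means among the members, 2.13 log2 units. Its log2 signals in S42L cells were 7.44, 7.22 and 7.55 with DHT and 6.84, 6.88 and 6.83 with testosterone. In wild-type cells they were 9.21, 9.02 and 8.70 with DHT and 8.10, 9.47 and 7.72 with testosterone. The lines were apart, and wild-type testosterone replicate 2 stood well above the other 2 arrays of its group. A further Dusp10 probe showed the same array as the highest of that group, at 9.12 against 8.16 and 7.47. The difference between the lines was 1.58 ± 0.33 under DHT and 1.58 ± 0.33 under testosterone, and 1.58 ± 0.23 over both, a 2.99-fold difference. The other probe gave 1.57 ± 0.24, with an overlap of the lines. Leaving out single arrays moved the difference between 1.32 and 1.76.

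Dusp6, the cytoplasmic ERK phosphatase, had a smaller difference that varied between its 3 probes. The probe with the highest mean signal read 13.04, 12.89 and 12.89 in wild-type and 12.42, 12.92 and 12.96 in S42L cells with DHT. With testosterone it read 12.93, 13.13 and 13.25 in wild-type and 12.67, 12.75 and 12.65 in S42L cells. The lines overlapped with DHT and were apart with testosterone. Over both androgens this probe differed by 0.29 ± 0.10, and the others by 0.41 ± 0.08 and 0.74 ± 0.14. With the mean of the tested probes in place of the brightest one the difference was 0.48, over 1.5 times larger. All 3 probes were higher in wild-type cells.

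Dusp1, an immediate early phosphatase gene that glucocorticoids also induce, hardly separated the lines. Its log2 signals were 8.56, 8.57 and 8.55 in wild-type and 8.27, 8.29 and 8.64 in S42L cells with DHT. With testosterone they were 9.15, 8.81 and 9.10 in wild-type and 8.94, 8.87 and 9.05 in S42L cells. The lines overlapped under each androgen, with a difference of 0.11 ± 0.09 over both and a 95% confidence interval from -0.08 to 0.31. With median scaling the difference was -0.02, so its sign depended on the scaling.

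The Sprouty and Spred genes were dim or level across the groups, so that the Sprouty side of the family rests on 1 weakly detected probe. Spry2, which inhibits Ras signalling below the receptor, was detected on 0 of 12 arrays. Its signals of 106 to 135 lay beside the median of 108.9 to 129.5 for undetected probes, and it was not tested. Spry4, another Sprouty, was detected on 9 of 12 arrays at signals of 131 to 180. Its log2 signals were 5.90, 6.09 and 5.95 in wild-type DHT cells, 5.90, 5.29 and 4.95 in wild-type testosterone cells, 5.00, 5.62 and 5.29 in S42L DHT cells and 5.01, 5.17 and 5.25 in S42L testosterone cells. The difference between the lines was 0.68 ± 0.21 under DHT, where the arrays were apart, and 0.24 ± 0.21 under testosterone, where they overlapped. Signals this near to background can compress a difference, and the size for Spry4 depended on the processing. Over both androgens it was 0.46 ± 0.15, but 0.27 with a background offset of 50 and 0.27 with the authors' processed values. Spred1, which recruits neurofibromin to switch Ras off, was detected on all 12 arrays at 10.27 to 10.74, and its groups overlapped, with a difference of 0.13 ± 0.09 (95% confidence interval -0.06 to 0.33). Spred2 had 1 tested probe, detected on 10 arrays, with a difference of -0.01 ± 0.18 (95% confidence interval -0.40 to 0.37). Its other 2 probes were detected on 2 and 0 arrays and were not tested.

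**Figure D1:**
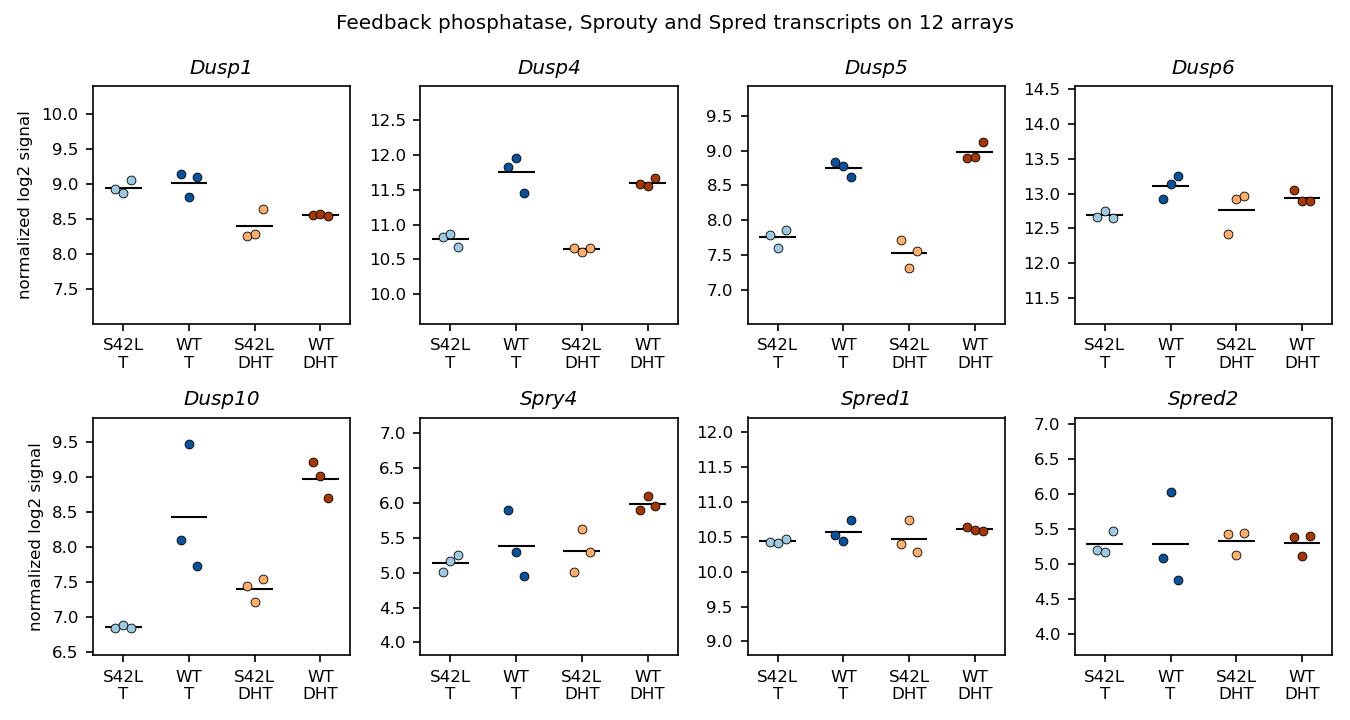
Normalized log2 signal of the brightest tested probe of 8 genes on each of the 12 arrays, in 4 groups (T, testosterone; WT, wild-type SHBG). Points are arrays, horizontal lines are means of 3 arrays, and every panel spans the same number of log2 units. Dusp4, Dusp5 and Dusp10 separate the lines under both androgens, and Dusp1 lies lower on the DHT arrays of both lines.

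Counted over genes by their brightest probe, 8 members were tested, and 7 were above and 1 was below 0 in wild-type minus S42L cells over both androgens. The median was 0.37, against 0.016 over all 19480 tested probes, and 0.32 against -0.076 with arrays scaled to a common median. Nothing is read from this count, because the comparison was known when the genes were chosen. For 3 of the 8 brightest probes, those of Dusp4, Dusp5 and Dusp10, all 6 wild-type arrays lay above all 6 S42L arrays, as 9.52% of all probes did.

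**Figure D2:**
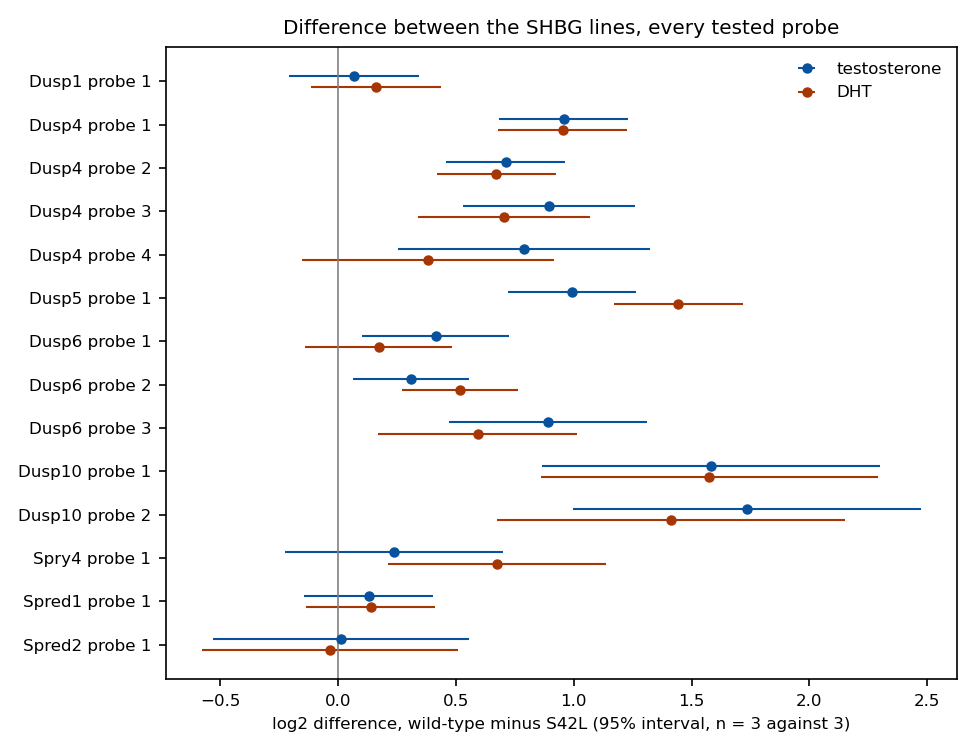
Log2 difference, wild-type minus S42L, of every tested probe of the members under testosterone and under DHT, with 95% confidence intervals from 3 against 3 arrays. Probes of a gene are numbered by falling mean signal. The 4 Dusp4, 2 Dusp10 and 3 Dusp6 probes all lie to the right of 0, and Spred2 lies at 0.

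The comparison of DHT with testosterone asked whether the androgen, at one dose and time, altered these transcripts within a line. Dusp1 was the member with the clearest androgen difference. DHT minus testosterone was -0.46 ± 0.13 in wild-type cells (adjusted p = 0.178) and -0.55 ± 0.13 in S42L cells (adjusted p = 0.0841), from limma over 3 against 3 arrays. In each line the DHT arrays lay below the testosterone arrays without overlap, as did 7.98% of all tested probes in wild-type cells, 11.6% in S42L cells and 2.98% in both. Neither difference passed the threshold, an adjusted p under 0.05 (Benjamini-Hochberg over all probes). Of 8 members 0 were called in wild-type and 0 in S42L cells, where 0.0719% and 0.267% of probes were called. At an unadjusted p under 0.05 there were 2 members in wild-type cells, Dusp1 and Spry4, and 1 in S42L cells, Dusp1. The share of all probes at that looser cut-off was not counted, so nothing is read from these counts. With median scaling of the arrays (adjusted p = 0.0424) or a background offset of 50 (adjusted p = 0.0338), Dusp1 was called in S42L cells, in a range of adjusted p from 0.0338 to 0.254 over the alternatives.

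Averaged over both lines, a comparison added after these values were seen, Dusp1 was lower with DHT than with testosterone. The difference was -0.51 ± 0.09 (6 against 6 arrays, adjusted p = 0.0136 in limma, 0.00263 to 0.0402 over the alternatives). Dusp1 was the 1 of 8 members called, where 3.69% of all probes were called and 2.39% were called lower. Dusp10 differed by 0.55 ± 0.23 (adjusted p = 0.224) and Spry4 by 0.38 ± 0.15 (adjusted p = 0.184). Dusp10 passed the threshold without wild-type testosterone replicate 2 (0.81, adjusted p = 0.0102) and Spry4 without wild-type testosterone replicate 1 (0.51, adjusted p = 0.0441). Dusp4 (-0.14 ± 0.09), Dusp5 (0.0013 ± 0.089), Spred1 (0.04 ± 0.09) and Spred2 (0.03 ± 0.18) were not called, with adjusted p from 0.415 to 0.995. The brightest Dusp6 probe differed by -0.04 ± 0.10 (adjusted p = 0.868). A dimmer Dusp6 probe, singled out after its values were seen, did pass over both lines at -0.42 ± 0.08 (adjusted p = 0.0174), from -0.31 ± 0.11 in wild-type and -0.52 ± 0.11 in S42L cells (adjusted p = 0.297 and 0.0752). Its call was lost without wild-type DHT replicate 1 (adjusted p = 0.0533, in a range from 0.00427 to 0.0533 over 18 alternatives). The dimmest Dusp6 probe lay at -0.36 ± 0.14 over both lines and was not called (adjusted p = 0.177 in limma). The probes of Dusp6 were thus all below 0, with the brightest near 0 and 1 called. Those of Dusp4 lay on both sides of 0, from -0.14 to 0.33, with none called. All these androgen differences are also differences between the 2 chips. The summed proximal tubule markers were lower with DHT in both lines as well, without overlap, though 0 of their 8 tested genes were called between the androgens in either line (lowest adjusted p 0.114 in wild-type and 0.0518 in S42L cells). The part of this shift in the androgen differences was not tested.

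**Figure D3:**
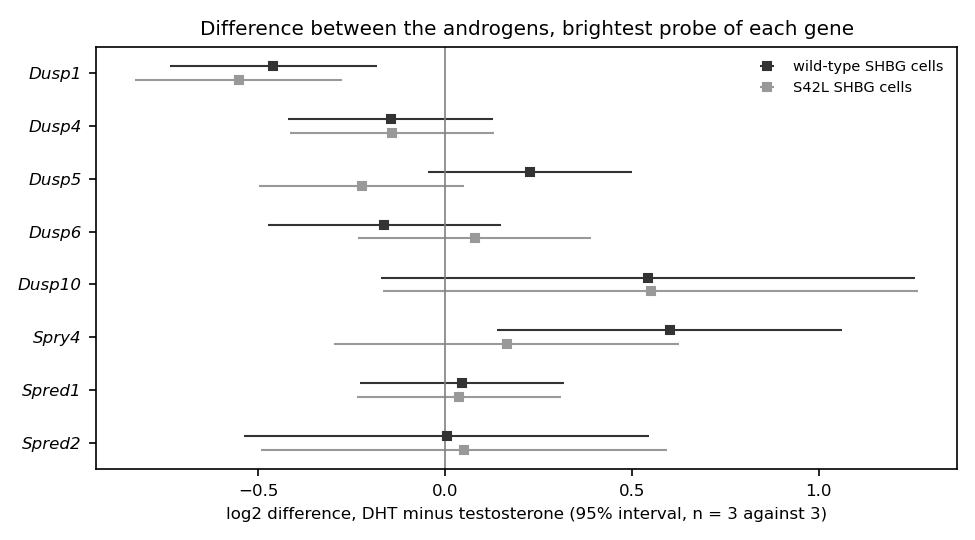
Log2 difference, DHT minus testosterone, of the brightest tested probe of each member in wild-type and in S42L SHBG cells, with 95% confidence intervals from 3 against 3 arrays on different chips. Dusp1 lies at -0.46 and -0.55, and Dusp5 lies on opposite sides of 0 in the lines, at 0.23 and -0.22.

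Whether the difference between the lines depended on the androgen was tested by the interaction, in which additive chip effects cancel. Dusp5 had the widest interaction of the members, 0.45 ± 0.18 log2 units, with the wild-type minus S42L difference larger under DHT. Its unadjusted p was 0.0259 and its adjusted p in limma was 1, so it did not pass over the whole array, and its 95% confidence interval ran from 0.06 to 0.84. Spry4 stood at 0.44 ± 0.30 and Dusp6 at -0.24 ± 0.20. Dusp4, with an interaction of -0.0040 ± 0.18, and Dusp10, at -0.0065 ± 0.47, had nearly equal differences under both androgens, with intervals of -0.39 to 0.38 and -1.02 to 1.01. None of the 8 members was called, and 0.00513% of all probes were. Dusp5 was the 1 member at an unadjusted p under 0.05, a cut-off at which the share of all probes was not counted.

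Genes with the most similar profile were sought among 10332 other named genes by the root mean square difference of centred log2 values over the 12 arrays. For Dusp5 these were Ddit3, encoding the stress factor CHOP, at 0.137 log2 units, the casein gene Csn3 at 0.153 and the glutathione transferase gene Gsta2 at 0.159. For Dusp10 they were Nxf7 at 0.339, Crct1 at 0.339 and the integrin subunit gene Itga7 at 0.361. All 6 were higher in wild-type cells, by 0.97 to 1.63 log2 units over both androgens. That direction follows from how they were picked, as Dusp5 and Dusp10 were themselves higher there. The wild-type testosterone arrays of Dusp10 had an SD of 0.92, which enters each of its distances.

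The other genes of the pathway were taken from 6 lists drawn up from knowledge of the pathway, with earlier results of these data known. Over both androgens, limma called 30 genes of these lists higher and 14 lower in wild-type cells. Over all tested probes, 37.8% were called, 19.2% higher and 18.6% lower. These shares are over probes, whereas each list gene counts once. With the mean of each gene's probes, 4488 of 10340 genes were called, 2272 of them higher. With median scaling the list counts were 20 and 14, the median of all probes went from 0.016 to -0.076, and the called probes that were higher went from 50.9% to 30.1%.

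Genes known to be induced by ERK were mostly higher in wild-type cells. Of 20 tested, 14 were higher, 1 lower and 5 not called, with a median of 0.44 against 0.016 for all probes, or 0.31 with median scaling. The called genes with the largest differences were Plk3, a stress-responsive kinase (1.26 ± 0.15, adjusted p = 3.24e-05), and the EGF receptor ligands Hbegf (1.20 ± 0.09, adjusted p = 6.43e-07) and Btc (1.08 ± 0.11, adjusted p = 1.52e-05). The size for Hbegf depended on the probe, as its other tested probe was also called higher but differed by 0.50. The ETS factors Etv4 (0.75 ± 0.14, adjusted p = 0.0011) and Etv5 (0.50 ± 0.09, adjusted p = 0.000627) were higher. So were Phlda1 (0.72 ± 0.17, adjusted p = 0.00495) and the cyclin gene Ccnd1 (0.82 ± 0.07, adjusted p = 2.07e-06). Klf6, a zinc-finger factor gene, was the lower one (-0.39 ± 0.08, adjusted p = 0.00229). Egr1, an immediate early factor, was higher by 0.32 ± 0.07 over both androgens (adjusted p = 0.00358), which joined 0.60 under DHT with 0.04 under testosterone.

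Egr1 was also the 1 gene of these 6 lists called between the androgens within a line. Its log2 signals in S42L cells were 9.67, 9.80 and 9.79 with DHT and 10.90, 10.89 and 11.01 with testosterone, a difference of -1.18 ± 0.10 (adjusted p = 0.000984 in limma). In wild-type cells they were 10.47, 10.19 and 10.40 with DHT and 10.92, 10.97 and 11.04 with testosterone, a difference of -0.62 ± 0.10 (adjusted p = 0.0529, 0.0121 to 0.144 over 19 alternatives, with a call under 4 of them). The DHT arrays lay below the testosterone arrays in both lines, as for Dusp1 and for 2.98% of all tested probes. The difference between these differences was 0.56 ± 0.14 and did not pass (adjusted p = 0.71). Over both lines, the comparison added later, 3.69% of all probes were called, among them Egr1 (-0.90 ± 0.07, adjusted p = 0.000136 in limma). So were Rasal2 (0.57 ± 0.12, adjusted p = 0.0244), Myc (-0.32 ± 0.07, adjusted p = 0.0319), Map2k1 (-0.47 ± 0.11, adjusted p = 0.0381) and Errfi1 (-0.38 ± 0.09, adjusted p = 0.0439). Here too androgen and chip cannot be told apart, and the summed proximal tubule markers were lower on the same arrays.

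Other feedback inhibitors moved both ways. Of 13 tested, 4 were higher, 5 lower and 4 not called, with a median of 0.06 that became -0.07 with median scaling. Socs3, an inhibitor of cytokine receptors, was higher (0.93 ± 0.08, adjusted p = 4.53e-06), as was Lrig1, which promotes degradation of the EGF receptor (0.57 ± 0.08, adjusted p = 0.00017). Il17rd, also called Sef, was detected on 0 of 6 wild-type and 6 of 6 S42L arrays and was at least 1.89-fold lower in wild-type cells (adjusted p = 2.13e-06). That bound sets the brighter line against the lowest detected signal of each dim array. The ubiquitin ligase gene Cblb (-0.98 ± 0.12, adjusted p = 4.88e-05), Socs2 (-0.87 ± 0.09, adjusted p = 1.83e-05) and Errfi1, an inhibitor that binds the EGF receptor (-0.62 ± 0.09, adjusted p = 0.000237), were lower. Socs5 was higher by 0.41 ± 0.14 (adjusted p = 0.0398), a call lost under 10 of 20 alternatives, with 0.24 under median scaling (adjusted p = 0.217). Among other dual-specificity phosphatases 3 of 11 were higher, 1 lower and 7 not called, with a median of 0.05 that became -0.06 with median scaling. Dusp8 (0.72 ± 0.09, adjusted p = 3.59e-05), Dusp2 (0.48 ± 0.09, adjusted p = 0.00167) and Dusp14 (0.34 ± 0.07, adjusted p = 0.00215) were higher and Dusp23 lower (-0.47 ± 0.16, adjusted p = 0.036), a call lost under 8 of 20 alternatives.

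The receptors and kinases of the cascade lay on both sides of 0. Of 9 tested growth factor receptors, 1 was higher, 3 were lower and 5 were not called. Fgfr2 was lower (-3.63 ± 0.08, adjusted p = 2.08e-11), as were Erbb2 (-0.56 ± 0.08, adjusted p = 0.000194) and the collagen receptor Ddr1 (-0.55 ± 0.10, adjusted p = 0.00104). The size for Fgfr2 depended on the probe: both of its 2 tested probes were called lower, but the dimmer one differed by -1.46. Fgfr4, detected on 6 of 6 wild-type and 2 of 6 S42L arrays, was higher (0.47 ± 0.17, adjusted p = 0.0417). Its value was 0.24 with an offset of 50, and its call was lost under 10 of 20 alternatives, median scaling among them (adjusted p = 0.099). Ddr1 was not called with the mean of its probes (adjusted p = 0.179). The brightest probe of Egfr, the receptor for the EGF in the medium, differed by -0.08 ± 0.07 (adjusted p = 0.423), but 3 of its 5 probes were called higher, and the mean of its probes was 0.24 higher (adjusted p = 0.00496). Of 15 tested genes from Grb2 to the ERK substrates 3 were higher, 2 lower and 10 not called. The MEK gene Map2k1 (0.44 ± 0.11, adjusted p = 0.00761), the kinase gene Rps6ka3 (0.46 ± 0.12, adjusted p = 0.00804) and Rras2 (0.41 ± 0.08, adjusted p = 0.00108) were higher. Mknk2 (-0.45 ± 0.07, adjusted p = 0.000308) and the adaptor gene Shc1 (-0.22 ± 0.07, adjusted p = 0.0197) were lower. With median scaling Map2k1 (adjusted p = 0.125), Rps6ka3 (adjusted p = 0.0537) and Shc1 (adjusted p = 0.111) were not called. With the mean of its probes Shc1 stood at -0.01 (adjusted p = 0.9).

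In the JNK and p38 branch, on which DUSP10 acts, 5 of 14 genes were higher, 2 lower and 7 not called. The p38 genes Mapk12 (0.75 ± 0.08, adjusted p = 9.55e-06) and Mapk11 (0.64 ± 0.09, adjusted p = 0.000186) and the JNK gene Mapk8 (0.51 ± 0.12, adjusted p = 0.00521) were higher. The p38 gene Mapk13, detected on 1 of 6 wild-type arrays, was lower (-1.10 ± 0.16, adjusted p = 0.00018). Its value was -0.59 with an offset of 50, and on 5 of those arrays the probe was not above background. Map3k1 was lower too (-0.38 ± 0.08, adjusted p = 0.00158). With median scaling Mapk8 was not called (adjusted p = 0.0738).

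**Figure D4:**
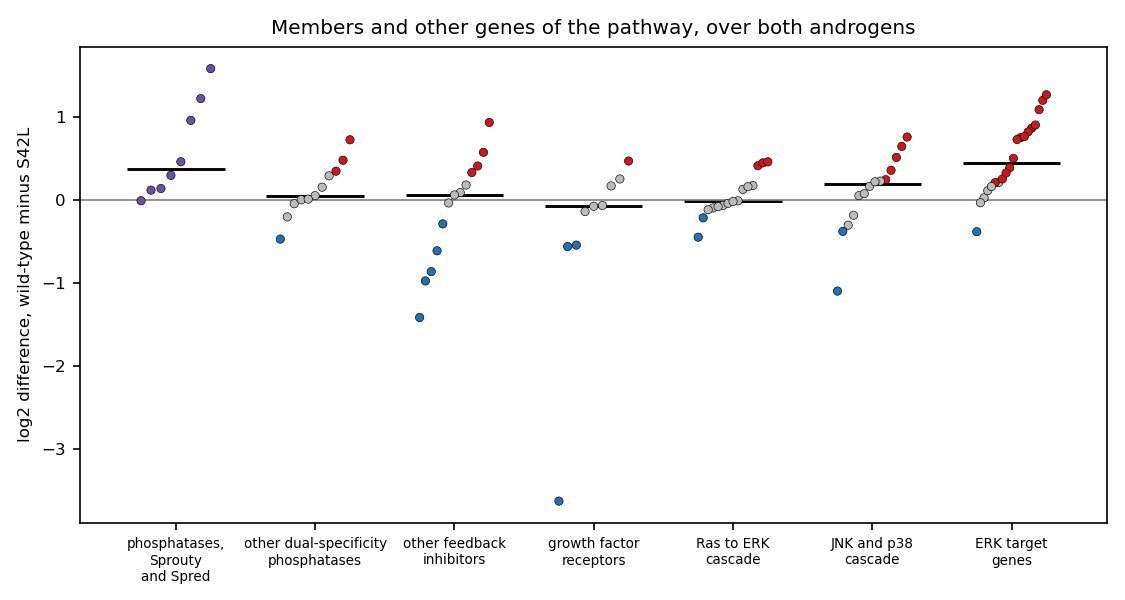
Log2 difference, wild-type minus S42L over both androgens (6 against 6 arrays), of the 8 tested members and of each tested gene of 6 pathway lists. Points are genes, horizontal lines are list medians, and in the lists red and blue mark genes called higher and lower by limma and grey those not called; members are purple because they are not tested here. Fitted values are plotted also for genes undetected in 1 line (Il17rd in wild-type cells and Etv1, an ERK target gene, in S42L cells). The ERK target genes have the highest list median, 0.44, and the lowest point is Fgfr2 at -3.63 by its brightest probe (-1.46 by its other tested probe).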

How the data were processed

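Total RNA was hybridised to 12 mouse bead arrays from Illumina, type WG-6 v2.0. Per the file headers, the deposited table gives an average bead signal, an intensity on a linear scale with no background subtraction or normalization between arrays, and a detection p-value, deposited beside each signal. Per the submitters' processing notes the software was BeadStudio, its version not given in the sources used here. A deposited table of the authors' processed intensity values, with column medians of 6.8 to 6.9 and a minimum of -30.1, looks background-subtracted on a linear scale with unstated normalization, and served as an alternative.

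Background was estimated from the detection p-values and the signals were quantile-normalized and put on the log2 scale with neqc (offset 16) in limma 3.58.1 (R 4.3.3). Quantile normalization removes a shift of most transcripts in 1 direction. Tests covered the 19480 of 45281 probes, for 10340 named genes, that were detected (p under 0.05) on 3 or more arrays. The model (lmFit, eBayes) had 1 coefficient per group (8 residual and 4.32 prior degrees of freedom), with two-sided tests, Benjamini-Hochberg adjustment over probes and calls at an adjusted p under 0.05. The number of arrays limits the precision: the median 95% confidence interval was ± 0.316 log2 units for 3 against 3 arrays, ± 0.223 over 6 against 6 and ± 0.446 for the interaction.

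Symbols came from the platform annotation, with 1 symbol for 34885 probes, several for 18 and none here for 10378. A gene is represented by its probe with the highest mean signal, and signals of different probes are not compared. The 10 genes, the pathway and marker lists and the tests were chosen with earlier results of these data known. Named were all members, up to 3 called genes per list and direction with the largest differences, Etv4, Etv5, Phlda1, Ccnd1, Egr1, Errfi1 and Egfr (some further genes are not reported here), and the 3 genes most similar to each of the 2 members with the widest span of group means. Sample titles gave the groups and replicate numbers. Alternatives were median scaling, an offset of 50, all probes, a detection p under 0.01, the processed values plus 50 on a log2 scale, the mean of a gene's probes, the replicate number or the chip as a block, and each array left out.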

Additional observations from a re-analysis of the deposited data

How the results depend on the processing

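Under 20 alternatives, 12 of which left out 1 array each, the median difference of the members between the lines ran from 0.28 to 0.47. The members called in wild-type cells between the androgens, and in the interaction, numbered 0 under each of the 19 alternatives run for them, which leave out the chip as a block. In S42L cells the count rose from 0 to 1 with median scaling and to 1 with an offset of 50, in both cases Dusp1, and the cause was not tested. Over both lines the count of 1 ranged from 1 to 2 when single arrays were left out. Of the other results, 1 reversed: the Egfr difference was 0.24 (adjusted p = 0.00496) with the mean of its probes, because 3 of its probes were called higher and the brightest was not. Among the named single genes 35 calls were lost, counted per gene and alternative, so that 1 gene can count several times. The 4 calls gained were those of Dusp1 in S42L cells and of Dusp10 and Spry4 over both lines, already given above. By left-out array, Fgfr4 lost its call without any of 7 (adjusted p 0.054 to 0.0908), namely wild-type DHT replicates 1 and 2, S42L testosterone replicates 1, 2 and 3, and wild-type testosterone replicates 2 and 3. Socs5 lost it without any of 8 (adjusted p 0.0537 to 0.0909), namely S42L DHT replicates 1 and 2, wild-type DHT replicates 1 and 2, S42L testosterone replicates 1, 2 and 3, and wild-type testosterone replicate 3. Dusp23 lost it without any of 7 (adjusted p 0.062 to 0.0906), namely S42L DHT replicates 1 and 2, wild-type DHT replicates 2 and 3, S42L testosterone replicates 1 and 2, and wild-type testosterone replicate 3, and Shc1 lost it without wild-type DHT replicate 1 (adjusted p = 0.0563). Same-numbered arrays of different groups deviated together at correlations of -0.047 to 0.12, and arrays with different numbers at -0.13 to 0.11. The ranges overlap, which does not settle whether the numbers pair the samples. With the replicate block the probes called between the androgens fell from 52 to 5 in S42L and from 14 to 8 in wild-type cells, the members called stayed at 0, 0 and 0 in the 3 tested comparisons, and Dusp1 over both lines kept its call (-0.51, adjusted p = 0.0179). The probes called over the whole array between the androgens numbered 4 to 54 in wild-type, 2 to 229 in S42L cells and 248 to 1230 over both lines across the alternatives, against 14, 52 and 719, and 196 in S42L cells without wild-type testosterone replicate 3. Between the lines they numbered 4488 to 7796 against 7363, the lowest with 10340 genes tested in place of probes. Signals near background limit Spry4 and Spred2, and Spry2 was not detected.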
